A study of Mus musculus with 12 samples.

Results

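Whole brains of mice homozygous for the h2 allele of Rorb were compared with whole brains of wild type (WT) mice, across every gene that was counted. The members are the 3 libraries whose genotype label is Rorbh2/h2 and the 3 labelled wt, which are 6 of the 12 libraries of the series. The series also holds 3 libraries of h1 homozygotes (Rorbh1/h1) and 3 of h4 homozygotes (Rorbh4/h4), and these entered the model and 2 side comparisons. Each library came from polyadenylated RNA of 1 brain, and 3 mice stood for each genotype, so the tests weigh a difference against the spread between animals. All mice were 6 weeks old. The WT and h1 mice were on C57BL/6J, those with h2 on the albino strain B6(Cg)-Tyrc-2J/J, and the h4 mice on B6.129S7-Il1r1tm1Imx/J. The h2 allele and its strain therefore cannot be told apart in any difference from WT. The labels give neither the sequence change of the h2 allele nor the litters, and a whole brain mixes all regions and cell types. In such bulk samples, fewer cells of a type and less RNA per cell cannot be told apart.

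Rorb encodes RORβ, an orphan nuclear receptor that binds DNA at ROR response elements and is known for its place in retina, in layer 4 of sensory cortex and in spinal interneurons that shape gait. Several of the genes that separated h2 from WT brains belong to the unfolded protein response. In that pathway, misfolded proteins in the endoplasmic reticulum (ER) free the sensors IRE1, PERK and ATF6 from the chaperone BiP, which is the product of Hspa5. IRE1 splices the mRNA of Xbp1, and XBP1 and cleaved ATF6 then raise chaperones, disulfide isomerases and degradation factors through ER stress response elements in their promoters. Other genes described below encode myelin, the membrane wrapped by oligodendrocytes around axons, and proteins of the leptomeninges and choroid plexus.

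The WT libraries held between 20168835 and 21472438 expected counts and the h2 libraries between 14513825 and 24694178, with h2 replicate 1 the shallowest. The groups differed in sex. Xist, the RNA that silences 1 X chromosome in females, was at 868, 866 and 891 CPM (counts scaled to the size of the library) in the WT libraries and at 0.994, 900 and 0.864 CPM in h2 replicates 1, 2 and 3. Ddx3y, a gene of the Y chromosome, was at 104 and 96.1 CPM in h2 replicates 1 and 3 and at 0.0405 CPM in h2 replicate 2. The comparison was therefore also fitted with Xist as a covariate and over the 7 libraries of high Xist alone. WT replicate 3 stood nearer to h2 than the other WT libraries did. It was the WT library closest to the h2 mean for 76 of the 112 genes called below (67.9%), against 38.6% of all genes tested. Its sample title has the form of the h1 and h2 titles, unlike those of WT replicates 1 and 2, and the labels do not say what that form stands for.

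Rorb itself was not lower in h2 brains. Its level was 18.4, 16.3 and 17.1 CPM in the WT libraries and 31.1, 31.0 and 22.6 CPM in the h2 libraries. Every h2 library lay above every WT library, and h2 replicate 3 lay nearest to WT. The log2 fold change was 0.70 (SE 0.17) and did not pass, with an adjusted p of 0.147 in the quasi-likelihood test of edgeR and an exact permutation p of 0.1, the smallest that 3 against 3 libraries allow. It passed with DESeq2 (0.70, adjusted p = 0.000298), without h1 replicate 2 (0.70, edgeR adjusted p = 0.0027) and without h2 replicate 3 (0.85, edgeR adjusted p = 0.0291). Over the high-Xist libraries, where h2 is replicate 2 alone, the log2 fold change was 0.85. Against h4, in which Rorb averaged 8.81 ± 0.262 CPM (SD, n = 3), the level in h2 was higher by 1.68 on the log2 scale (SE 0.194, edgeR adjusted p = 0.00241). Against h1, at 26.3 ± 5.89 CPM (SD, n = 3), the difference was 0.09 (SE 0.167, edgeR adjusted p = 0.951). The gene, ENSMUSG00000036192, spans chromosome 19 from 18930605 to 19111196 in GRCm38 and is read from the minus strand.

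Tyr, the tyrosinase gene that carries the albino mutation of the h2 strain, was at 0.838, 1.08 and 0.909 CPM in WT and 1.23, 1.36 and 1.499 CPM in h2. The groups did not overlap at these low levels, and the difference of 0.56 on the log2 scale was not called (edgeR adjusted p = 0.433). A level of RNA does not check a mutation of the coding sequence. Of 9 melanocyte genes tested none was called, and Mlana was at 0 in all 6 libraries. 

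Of 16493 genes tested, 112 were called at an adjusted p under 0.05 (0.679%), of which 56 were higher in h2 (0.34%) and 56 lower (0.34%). The changes were small, with a median fold of 1.23 among called genes, 21 genes over 1.5-fold and 11 over 2-fold. All 112 called genes had h2 and WT libraries that did not overlap, a separation found in 15.2% of all genes tested. The median log2 fold change over all genes tested was 0.003, and 1891 genes had an unadjusted p under 0.05. Of the called genes, 104 were protein coding, 2 lay on the X and 0 on the Y chromosome. Within 20 Mb of Rorb 5 of 353 genes tested were called (1.42%: Sgms1, Il33, Uhrf2, Fas and Fth1), and within 20 Mb of Tyr 2 of 252 (0.794%: Sytl2 and Plekhb1). The nearer window of 10 Mb held 1 called gene of 101 at Rorb (0.99%: Fth1) and 1 of 120 at Tyr (0.833%: Sytl2). The number of calls rested on single libraries, as the plot of calls with 1 library left out shows. It fell to 18 when WT replicate 1 was left out, 25 for WT replicate 2, 45 for h2 replicate 1 and 27 for h2 replicate 2, and it was 348 for WT replicate 3. Of the 112 genes, 17 kept their call without WT replicate 1, 23 without WT replicate 2, 106 without WT replicate 3, and 41, 26 and 70 without h2 replicates 1, 2 and 3. With Xist as a covariate 70 genes were called, 53 of them among the 112, and over the high-Xist libraries alone 39. Of the 103 called genes with a usable symbol, all 103 kept their direction in every alternative that gave a value, which was each of 19 except for Spaar and Hoxa7 (18) and Hoxb9 (16). Since no called gene overlapped between h2 and WT, fewer libraries, other scaling or other filters could hardly reverse a direction. For those fits the kept direction is no test. With Xist as a covariate 50 of the 103 were called, and over the high-Xist libraries alone 18. The call held in all 19 alternatives for 8 genes: Slc6a20a, Aebp1, Serpinb1a, Fam180a and Ptgds, which rose, and Itih2, Sgms1 and Banp, which fell.

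**Figure D1:**
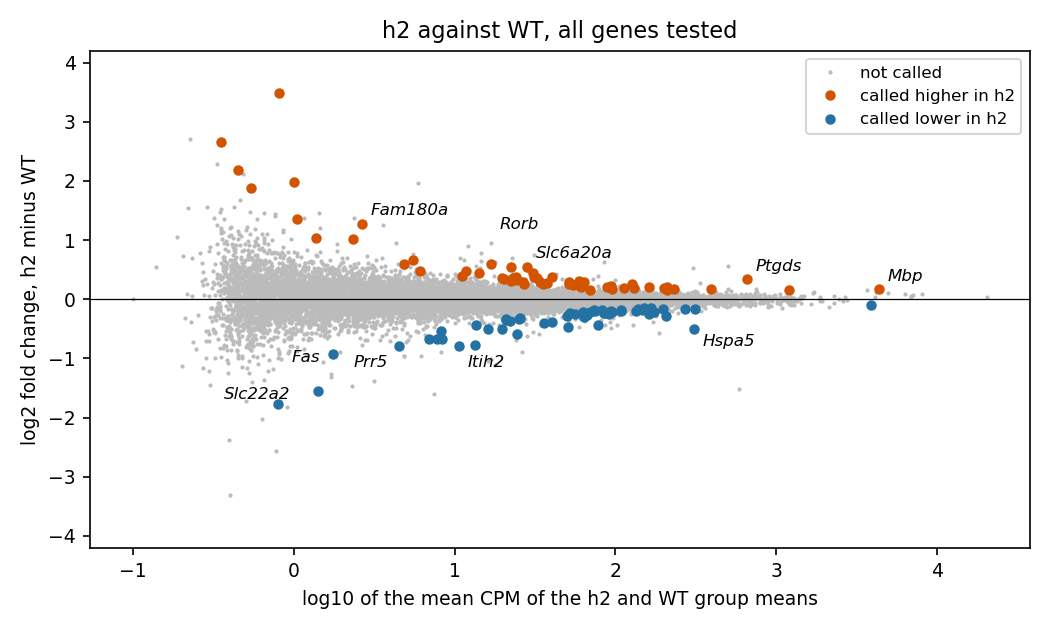
Log2 fold change of h2 minus WT (vertical) against the log10 of the mean CPM of both groups (horizontal, a log axis whose lowest values are set to 0.1 CPM), for all genes tested; 13 genes beyond 4 on the log2 scale, of which 0 were called, are not drawn. Called genes rise in orange and fall in blue, and most lie close to 0, with a median fold of 1.23.

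**Figure D2:**
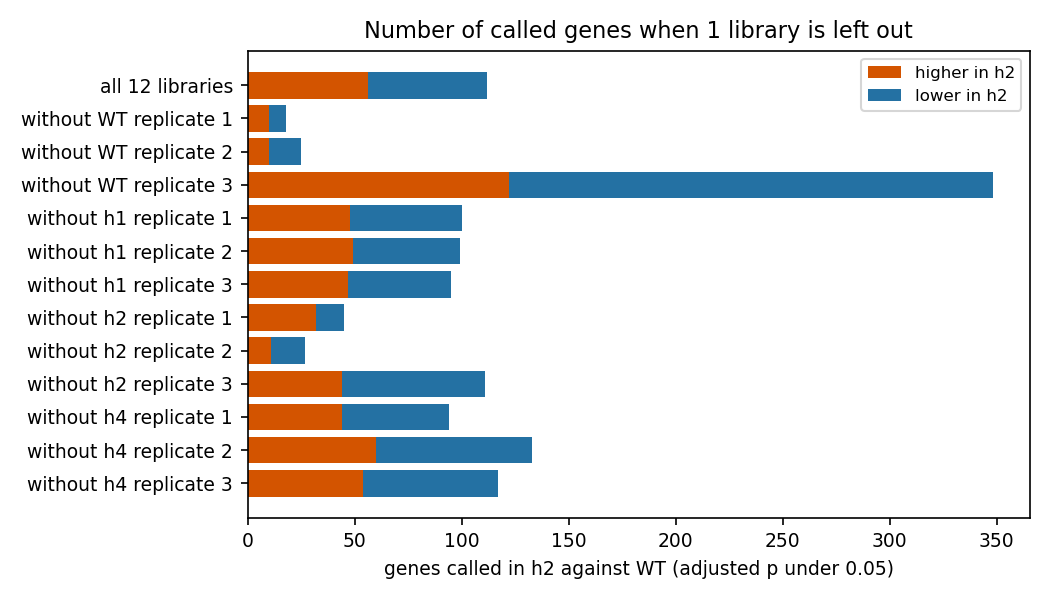
Number of genes called in h2 against WT (horizontal, bars from 0) with all 12 libraries and with each library left out in turn, split into higher (orange) and lower (blue). The count runs from 18 without WT replicate 1 to 348 without WT replicate 3.

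A group of genes that serve protein folding in the ER fell in h2 brains. Of 59 genes tested in 4 lists (chaperones, disulfide isomerases, ER-associated degradation, and sensors and transcription factors of the unfolded protein response), 10 fell and 0 rose. Of the 49 that were not called, 30 pointed down. Over all genes tested, 0.34% were called lower and 51.3% pointed up. Among 15 chaperones and their partners, 6 fell, with a list median of -0.17. Among 14 disulfide isomerases and oxidases 2 fell (median -0.05), among 15 degradation factors 1 (median -0.01) and among 15 sensors and factors 1 (median -0.04). The 10 genes were at 62.1% to 88.9% of their WT mean. Of 20 genes of the translocon, signal peptidase and oligosaccharyltransferase 0 were called (median 0.004), and of 22 genes of ER to Golgi traffic 0 as well (median 0.003).

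Hspa5 encodes BiP, the Hsp70 chaperone of the ER lumen and the inhibitor of the 3 stress sensors. Its level was 391, 376 and 323 CPM in WT and 254, 249 and 266 CPM in h2. All h2 libraries were lower than all WT libraries, and the lowest WT library was replicate 3. The log2 fold change was -0.50 (SE 0.085, edgeR adjusted p = 0.0331), and over 19 alternatives it ran from -0.586 to -0.445 and lost its call in 10. Sdf2l1, an ER lumen partner of the ERdj co-chaperones, had the largest fall, with 10.5, 7.41 and 7.64 CPM in WT and 4.41, 4.74 and 6.71 CPM in h2. The h2 libraries again lay below WT, although h2 replicate 3 came close to WT replicates 2 and 3 (-0.67, SE 0.155, edgeR adjusted p = 0.0495). Manf, a secreted neurotrophic factor that binds BiP, was at 42.9, 43.8 and 36.0 CPM in WT and 32.1, 30.4 and 30.5 CPM in h2 with no overlap (-0.41, SE 0.072, edgeR adjusted p = 0.00652).

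Dnajc3, the co-chaperone P58IPK, was at 105, 98.2 and 94.7 CPM in WT and 85.0, 87.9 and 83.6 CPM in h2 (-0.22, edgeR adjusted p = 0.0246). Hyou1, the nucleotide exchange factor that resets BiP, was at 119, 116 and 109 CPM in WT and 99.6, 100.5 and 104 CPM in h2 (-0.18, edgeR adjusted p = 0.0452). Calr, the lectin chaperone and calcium store protein calreticulin, was at 333, 345 and 312 CPM in WT and 308, 280 and 292 CPM in h2 (-0.17, edgeR adjusted p = 0.0488). These 3 genes changed least of the 6 chaperones, and for each the groups lay side by side without overlap. On the deposited TPM scale, which accounts for gene length, Calr was the most abundant of the 10, with a mean of 408 in WT and 361 in h2, followed by Hspa5 with 299 and 207. Other chaperones did not pass: Hsp90b1 (-0.11), Canx (-0.07) and Creld2 (-0.30) were below WT in all h2 libraries, whereas Dnajb9, an XBP1 target, was at 0.02 and Dnajc10 at 0.09 on the log2 scale.

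**Figure D3:**
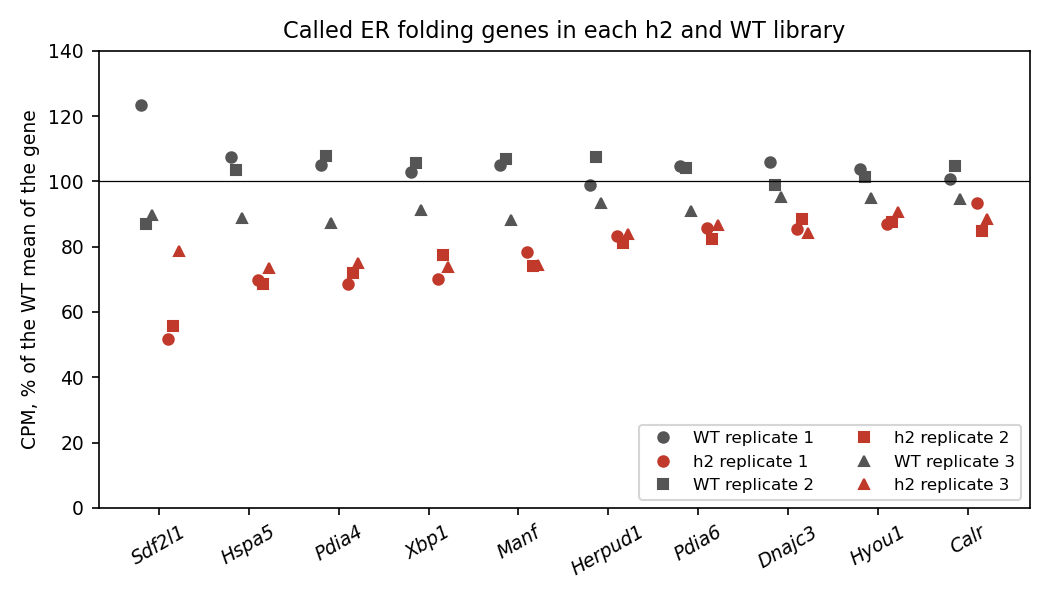
The 10 called ER folding genes in each library, as CPM in percent of the gene's WT mean (vertical, from 0); grey symbols are the 3 WT and red symbols the 3 h2 libraries, and the symbol shape gives the replicate. All h2 libraries lie below all WT libraries, and WT replicate 3 is the lowest WT library for 9 of the 10 genes.

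Pdia4 and Pdia6 encode disulfide isomerases, which form and shuffle disulfide bonds in new proteins. Pdia4 was at 61.7, 63.3 and 51.3 CPM in WT and 40.4, 42.2 and 44.1 CPM in h2 (-0.47, SE 0.074, edgeR adjusted p = 0.00642). Pdia6 was at 101, 101 and 88.0 CPM in WT and 82.9, 79.5 and 83.7 CPM in h2 (-0.24, edgeR adjusted p = 0.0174). Neither overlapped, and WT replicate 3 was again nearest to h2. The abundant family members P4hb (-0.04) and Pdia3 (-0.10) were not called. Herpud1, a scaffold of the ubiquitin ligase that removes misfolded ER proteins, was at 54.5, 59.2 and 51.5 CPM in WT and 45.8, 44.7 and 46.3 CPM in h2 (-0.27, edgeR adjusted p = 0.0135), below WT in every library. Other degradation genes were not called, such as Vcp at 0.03, Sel1l at -0.04 and Edem1 at 0.00.

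Xbp1, the transcription factor of the IRE1 branch, was at 92.1, 94.6 and 81.7 CPM in WT and 62.8, 69.4 and 66.0 CPM in h2. The groups did not overlap, and it fell by 0.43 on the log2 scale (SE 0.068, edgeR adjusted p = 0.00847). The sensors did not pass, with Atf6 at -0.02, Eif2ak3, which encodes PERK, at 0.03 and Ern1, which encodes IRE1, at -0.15. Genes of the PERK branch did not pass either, with Atf4 at 0.03, Ddit3 at -0.03 and Ppp1r15a at 0.20. Of 16 ATF4 amino acid response targets, 1 fell, the large neutral amino acid transporter Slc7a5, and the list median was 0.015. Gene counts do not show how much Xbp1 mRNA was spliced.

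The count of 10 ER genes depended on single libraries and on how Xist entered the fit. It was 0 when WT replicate 1 was left out, 1 for WT replicate 2, 3 for h2 replicate 1, 1 for h2 replicate 2, 6 for h2 replicate 3, 6 for h1 replicate 2, 5 with Xist as a covariate and 1, Xbp1, over the high-Xist libraries alone. Direction held in each case, which the lack of overlap all but fixed in advance for the fits with fewer libraries. The median over the 4 lists stayed between -0.063 and -0.035 in all alternatives. Over the high-Xist libraries, where h2 is replicate 2 alone, Hspa5 was at -0.54, Pdia4 at -0.48, Manf at -0.43 and Xbp1 at -0.36.

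Promoters of these genes are printed because 5 of them hold the element through which ATF6 and XBP1 are known to act. RefSeq promoters of GRCm38.p6, from 250 bases before to 50 after the gene start, were at hand for 12200 of the 16493 genes tested and for 8 of the 10 ER genes. Both strands were searched for the ER stress response element ERSE (CCAAT, 9 bases of any kind, CCACG), for ERSE-II (ATTGG, any base, CCACG), which shares the letters CCACG with it, and for the core UPRE sequence TGACGTGG, whose reverse complement also holds CCACG. A gene counted when any of its promoters held the letters. ERSE was found for 20 of the 12200 genes (0.164%) and ERSE-II for 8 (0.0656%). Among the 8 ER genes, Hspa5, Dnajc3, Pdia6 and Calr held an ERSE and Herpud1 an ERSE-II. None of the 8 held the UPRE core, found for 1.02% of the 12200 genes, a share too low for its absence from 8 genes to mean anything. The capitals mark the match, which starts 65 bases before the gene start in Hspa5, 98 in Pdia6, 105 in Dnajc3, 162 in Calr, where it is in reverse orientation, and 52 in Herpud1. The windows are chr2:34771840-34772139 (plus strand), chr12:17266339-17266638 (plus), chr14:118937682-118937981 (plus), chr8:84846882-84847181 (minus) and chr8:94386179-94386478 (plus), each written 5′ to 3′ in the direction of the gene.
Hspa5: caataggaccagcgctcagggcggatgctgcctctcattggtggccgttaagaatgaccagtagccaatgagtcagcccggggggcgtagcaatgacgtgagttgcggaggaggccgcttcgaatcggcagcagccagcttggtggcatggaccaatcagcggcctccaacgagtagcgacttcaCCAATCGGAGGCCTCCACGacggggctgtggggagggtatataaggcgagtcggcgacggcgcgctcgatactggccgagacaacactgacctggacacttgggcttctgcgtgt
Pdia6: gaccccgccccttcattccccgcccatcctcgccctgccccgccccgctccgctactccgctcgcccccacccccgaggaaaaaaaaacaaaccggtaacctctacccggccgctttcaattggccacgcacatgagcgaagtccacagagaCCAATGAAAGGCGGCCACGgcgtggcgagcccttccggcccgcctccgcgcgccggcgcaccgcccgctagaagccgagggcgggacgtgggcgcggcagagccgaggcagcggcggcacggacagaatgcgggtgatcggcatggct
Dnajc3: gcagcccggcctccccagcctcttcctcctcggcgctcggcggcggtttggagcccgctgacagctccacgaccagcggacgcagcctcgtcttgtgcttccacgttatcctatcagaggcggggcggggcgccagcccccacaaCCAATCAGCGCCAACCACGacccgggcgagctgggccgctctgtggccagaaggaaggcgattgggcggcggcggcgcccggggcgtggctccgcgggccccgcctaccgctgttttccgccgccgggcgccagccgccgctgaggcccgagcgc
Calr: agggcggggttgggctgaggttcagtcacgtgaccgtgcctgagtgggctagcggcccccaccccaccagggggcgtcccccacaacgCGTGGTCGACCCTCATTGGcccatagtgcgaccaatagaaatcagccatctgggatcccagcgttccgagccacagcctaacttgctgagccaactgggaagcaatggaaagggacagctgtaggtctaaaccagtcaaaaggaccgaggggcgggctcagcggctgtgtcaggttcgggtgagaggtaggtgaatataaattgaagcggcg
Herpud1: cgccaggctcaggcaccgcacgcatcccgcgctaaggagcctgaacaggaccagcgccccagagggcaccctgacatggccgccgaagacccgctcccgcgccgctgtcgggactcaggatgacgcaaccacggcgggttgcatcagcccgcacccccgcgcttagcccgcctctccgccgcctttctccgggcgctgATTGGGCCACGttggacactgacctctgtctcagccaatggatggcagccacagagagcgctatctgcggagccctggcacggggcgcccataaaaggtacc

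A match describes letters and is not a binding site, and no match says only that the letters are not in the window. In the chaperone list 6 of 12 genes with a promoter at hand held an ERSE, the called Hspa5, Dnajc3 and Calr and also Canx, Creld2 and Hsp90b1, which did not pass. In the degradation list Syvn1 (-0.18) and Derl3 (0.06) held one and did not pass. The ROR element (AA, any base, TAGGTCA), the letters known for RORβ and its relatives, was found for 21 of 12200 genes (0.172%). It was found for no called gene, with promoters at hand for 39 genes that rose and 41 that fell. With so low a share over all genes, finding none among so few does not set the called genes apart.

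Of 23 cytosolic heat shock chaperones tested, 3 fell and 0 rose, 20 pointed down, and the median was -0.08. Over all genes tested, 0.34% were called lower and 51.3% pointed up. Hspa1b was at 9.13, 9.88 and 9.59 CPM in WT and 5.52, 5.35 and 6.97 CPM in h2 (-0.67, SE 0.143, edgeR adjusted p = 0.028). Hspa1a was at 9.60, 9.81 and 10.1 CPM in WT and 5.28, 7.79 and 7.004 CPM in h2 (-0.53, SE 0.119, edgeR adjusted p = 0.028). These inducible Hsp70 genes did not overlap between groups, but they are near-identical neighbours, starting 12.8 kb apart, so the split of reads between them is uncertain. Chordc1, an Hsp90 co-chaperone, fell by 0.20 on the log2 scale (edgeR adjusted p = 0.048). The abundant chaperones Hspa8 (-0.06) and Hsp90ab1 (-0.04) were not called. The count of 3 was 0 without WT replicate 1, WT replicate 2 or h2 replicate 1 and 1 without h2 replicate 2. With Xist as a covariate none of the 3 kept its call, with adjusted p of 0.1219 for Hspa1b, 0.1636 for Hspa1a and 0.0782 for Chordc1 (edgeR).

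Part of the myelin genes rose in h2 brains. Of 23 myelin sheath genes tested, 5 rose and 0 fell, where 0.34% of all genes tested were called higher. All 23 pointed up, where 51.3% of all genes tested did, with a list median of 0.15. Mbp, myelin basic protein, was at 3866, 4165 and 4357 CPM in WT and 4461, 4677 and 4835 CPM in h2 (0.17, SE 0.038, edgeR adjusted p = 0.0459). Opalin, a membrane protein of oligodendrocyte paranodes, was at 24.0, 22.7 and 30.9 CPM in WT and 35.8, 35.3 and 34.7 CPM in h2 (0.45, SE 0.081, edgeR adjusted p = 0.0107). Both genes were higher in every h2 library than in every WT library, with WT replicate 3 the highest of WT. Mbp lost its call in 12 of the 19 alternatives, and Opalin in 6.

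The connexin genes Gjb1 and Gjc3 rose by 0.35 (edgeR adjusted p = 0.022) and 0.18 (edgeR adjusted p = 0.0226), and Tmem88b, a membrane protein of oligodendrocytes, by 0.25 (edgeR adjusted p = 0.0136). Cnp (0.09), Mag (0.12) and Mog (0.17), further genes of the sheath, were not called. Summed over the 23 genes, myelin reached 12349, 13073 and 14068 CPM in WT and 13862, 14650 and 14986 CPM in h2. The sums overlap, because WT replicate 3 lay above h2 replicate 1. For 20 of the 23 genes WT replicate 3 was the highest WT library.

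Outside that list, further genes known from oligodendrocytes were called, and these were chosen after their values were seen. Pllp, which encodes the membrane protein plasmolipin, rose by 0.31 (edgeR adjusted p = 0.019). Plekhb1 rose by 0.17 (edgeR adjusted p = 0.0195), Gpr37, a receptor of maturing oligodendrocytes, by 0.21 (edgeR adjusted p = 0.0246), and Klk6, a protease of oligodendrocytes, by 0.36 (edgeR adjusted p = 0.0197). Among 17 oligodendrocyte precursor and lineage genes, 1 rose, Bcas1 (0.17, edgeR adjusted p = 0.028), a gene of newly forming oligodendrocytes, and the list median was 0.01. The regulators Olig2 (0.00), Sox10 (0.21) and Myrf (0.11) and the precursor genes Pdgfra (-0.10) and Gpr17 (-0.31) did not pass. Fth1, the ferritin heavy chain that stores iron, rose by 0.16 (edgeR adjusted p = 0.0459), as the 1 call among 13 iron genes, and lost its call in 13 of the 19 alternatives.

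The myelin count of 5 fell to 0 when WT replicate 1, WT replicate 2 or h2 replicate 2 was left out and to 3 for h2 replicate 1 or 3, and it was 13 for WT replicate 3 and 9 with no low-count filter. Over the high-Xist libraries alone it was 1, and among the h2 and WT libraries alone 3. The list median stayed between 0.114 and 0.185. The rise was not particular to h2, as the list median was 0.24 for h1 minus WT and 0.12 for h4 minus WT, beside 0.15 for h2 minus WT. It was -0.11 for h2 minus h1 and 0.04 for h2 minus h4. With Xist as a covariate the adjusted p was 0.0603 for Mbp, 0.0552 for Gjb1, 0.0844 for Klk6, 0.06 for Bcas1 and 0.164 for Fth1 (edgeR), so these calls were lost.

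**Figure D4:**
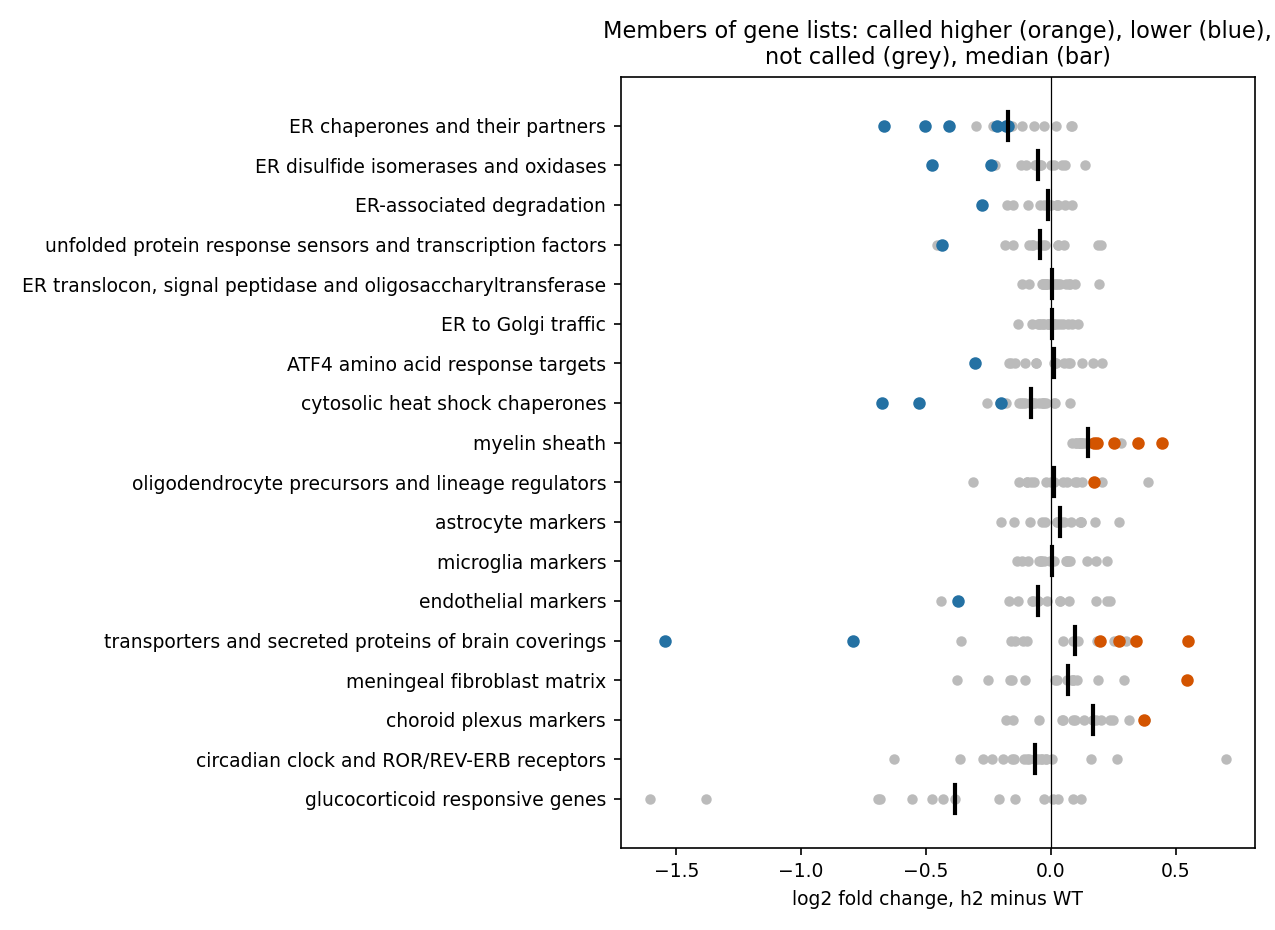
Log2 fold change of h2 minus WT (horizontal) for each tested member of 18 gene lists (vertical), with called rises in orange, called falls in blue, uncalled genes in grey and the median as a bar. Members of the chaperone list reach down to -0.67, all 23 myelin genes lie above 0, and the glucocorticoid list has a median of -0.385 with 0 called genes.

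Transporters and secreted proteins of the brain's coverings were called in both directions, 4 of 18 higher and 2 lower, with a list median of 0.10. Over all genes tested, 0.34% were called higher and 0.34% lower. This list, like the others, was chosen with earlier results of these data known. Slc22a2, the organic cation transporter OCT2, was at 1.77, 1.96 and 2.58 CPM in WT and 0.620, 0.769 and 0.722 CPM in h2, with every h2 library under the lowest WT library. It fell by 1.55 on the log2 scale (SE 0.27, edgeR adjusted p = 0.0047), and over the high-Xist libraries alone it was at -1.44 and lost its call (edgeR adjusted p = 0.1627). Itih2, a heavy chain of the inter-α-trypsin inhibitors that bind hyaluronan, was at 11.9, 14.9 and 13.6 CPM in WT and 7.92, 7.57 and 7.85 CPM in h2 (-0.79, SE 0.11, edgeR adjusted p = 0.000303).

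Slc6a20a, a transporter of proline and other imino acids, was at 21.9, 23.9 and 23.0 CPM in WT and 33.1, 33.6 and 34.0 CPM in h2 (0.55, SE 0.064, edgeR adjusted p = 5.04e-05), the smallest adjusted p of the comparison. Ptgds, the prostaglandin D synthase secreted into cerebrospinal fluid, was at 547, 625 and 573 CPM in WT and 740, 727 and 746 CPM in h2 (0.34, SE 0.046, edgeR adjusted p = 0.000797). In both genes every h2 library lay above every WT library. Apod, a lipid carrier, rose by 0.20 (edgeR adjusted p = 0.0233) and Spp1, the secreted phosphoprotein osteopontin, by 0.27 (edgeR adjusted p = 0.0339). Both lost their calls when any single h2 library was left out, and Apod also with Xist as a covariate (edgeR adjusted p = 0.116).

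Aebp1, an extracellular matrix protein of fibroblasts, was at 18.2, 18.9 and 17.6 CPM in WT and 28.2, 25.9 and 26.2 CPM in h2 (0.55, SE 0.066, edgeR adjusted p = 5.58e-05), without overlap. It was the 1 call among 16 meningeal matrix genes, whose median was 0.07, while the collagens Col1a1 (0.19), Col1a2 (0.02) and Col3a1 (0.07) did not pass. Of 18 choroid plexus genes, 1 rose, Kl, which encodes klotho, at 29.6, 25.5 and 26.6 CPM in WT and 34.1, 37.5 and 34.2 CPM in h2 (0.37, SE 0.071, edgeR adjusted p = 0.0107). The list median was 0.17, and Ttr, the defining transthyretin gene, was at 663, 556 and 670 CPM in WT and 751, 606 and 665 CPM in h2, which overlap. Summed levels of the choroid list were 1323 to 1560 CPM in WT and 1546 to 1729 CPM in h2, and of the meningeal list 296 to 311 and 306 to 321 CPM, and their part in these results was not tested. Mfsd2a, the lysophospholipid transporter of the blood-brain barrier, fell by 0.37 (edgeR adjusted p = 0.0471) as the 1 call among 16 endothelial genes. Kl lost its call without WT replicate 2 or h2 replicate 2, and Mfsd2a in 9 of the 19 alternatives, among them Xist as a covariate (edgeR adjusted p = 0.0802).

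Fas, the death receptor and a p53 target, was at 1.91, 2.84 and 2.13 CPM in WT and 1.10, 1.01 and 1.49 CPM in h2, a large fall at a low level (-0.92, SE 0.219, edgeR adjusted p = 0.0421). The groups did not overlap, and of the other 17 p53 targets none was called. Its call was lost in 10 of the 19 alternatives, among them those without WT replicate 1 or 2, h1 replicate 1 or 3, h2 replicate 1 or 2, or h4 replicate 1. Of 20 genes of ceramide and sphingolipid metabolism 2 fell, where 0.34% of all genes tested were called lower. Sgms1, a sphingomyelin synthase of the Golgi, was at 46.5, 44.4 and 45.7 CPM in WT and 33.9, 35.2 and 35.3 CPM in h2 (-0.39, SE 0.054, edgeR adjusted p = 0.000346). Acer2, the Golgi ceramidase, was at 10.7, 9.42 and 10.9 CPM in WT and 4.38, 6.50 and 7.98 CPM in h2 (-0.67, SE 0.134, edgeR adjusted p = 0.0193). In both genes all h2 libraries lay below WT, and Acer2 lost its call without WT replicate 1 or h2 replicate 2, with the h2 and WT libraries alone and with Xist as a covariate (edgeR adjusted p = 0.0782). Acss2, which makes acetyl-CoA from acetate, and Insig1, a brake on cholesterol synthesis, rose by 0.16 and 0.22 (edgeR adjusted p = 0.0421 and 0.0374) among 26 lipid synthesis genes. Their count of 2 was 0 when WT replicate 1 or 2, h4 replicate 1 or any h1 or h2 library was left out, 1 for h4 replicate 3, 4 for WT replicate 3 and 0 with Xist as a covariate.

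Among other large falls, Prr5, a subunit of the mTORC2 kinase complex, was at 6.30, 6.47 and 4.51 CPM in WT and 2.76, 3.24 and 3.82 CPM in h2 (-0.80, SE 0.154, edgeR adjusted p = 0.0107). Banp, a nuclear protein that binds CpG-rich promoters, was at 31.2, 28.8 and 28.5 CPM in WT and 17.2, 20.5 and 21.1 CPM in h2 (-0.58, SE 0.087, edgeR adjusted p = 0.00227). Neither gene overlapped between groups. Banp and Slc7a5, which fell by 0.30 (edgeR adjusted p = 0.0246), start 68.6 kb apart on chromosome 8. Slc38a2, a sodium-coupled transporter of small neutral amino acids, was at 233, 224 and 221 CPM in WT and 179.6, 188 and 191 CPM in h2 (-0.28, SE 0.047, edgeR adjusted p = 0.00566), again with no overlap. Without WT replicate 1 Prr5, Slc38a2 and Slc7a5 lost their calls, and Prr5 and Slc7a5 also without WT replicate 2, h2 replicate 1 or h2 replicate 2. With Xist as a covariate Slc7a5 was not called (edgeR adjusted p = 0.0885).

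The largest rises among named genes were at low levels. Spaar, which encodes a small polypeptide of the amino acid response, was at 0.560, 0.559 and 0.595 CPM in WT and 1.93, 1.13 and 1.49 CPM in h2 (1.36, SE 0.281, edgeR adjusted p = 0.0192). Fam180a was at 1.73, 1.58 and 1.34 CPM in WT and 3.86, 3.56 and 3.95 CPM in h2 (1.28, SE 0.182, edgeR adjusted p = 0.000346). Tmprss5, a membrane serine protease, was at 1.21, 1.40 and 1.93 CPM in WT and 3.93, 2.84 and 2.63 CPM in h2 (1.01, SE 0.2, edgeR adjusted p = 0.0135). None of the 3 overlapped, and Spaar and Tmprss5 lost their calls without WT replicate 1, WT replicate 2 or h2 replicate 1. Spaar was not called with Xist as a covariate (edgeR adjusted p = 0.103) or with DESeq2 (adjusted p = 0.0715). Serpinb1a, an inhibitor of neutrophil serine proteases, was at 12.9, 12.9 and 14.8 CPM in WT and 20.1, 20.7 and 20.4 CPM in h2 (0.60, SE 0.079, edgeR adjusted p = 0.000178), with no overlap. Of 17 Hox genes in the list 1 rose, Hoxa7 (1.88, edgeR adjusted p = 0.0246), from 0.161 to 0.297 CPM in WT to 0.482 to 1.17 CPM in h2. Hoxb9, which is not in the list and was chosen after its values were seen, rose as well (2.65, edgeR adjusted p = 0.0192), from 0.140, 0.0466 and 0.0992 CPM in WT to 0.413, 0.567 and 0.849 CPM in h2. Both Hox genes lost their calls without WT replicate 1, WT replicate 2, h2 replicate 2 or h2 replicate 3, Hoxa7 with DESeq2 (adjusted p = 0.0879) and Hoxb9 with Xist as a covariate (edgeR adjusted p = 0.0697). H2-Q1, which is close in sequence to other H2-Q genes and so uncertain as a single copy, was at 0.434, 0.182 and 0.597 CPM in WT and 1.61, 1.47 and 1.71 CPM in h2 (1.97, edgeR adjusted p = 0.00101).

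To ask whether h2 differed from the other mutants as well, h2 was tested against h1 and h4 in the same model. These tests share the 3 h2 libraries with the comparison to WT, so they are not independent of it. In all, 119 genes were called against h1 (0.722%) and 531 against h4 (3.22%). The first count was 44 without h2 replicate 1, 45 without h1 replicate 2 and 66 without h2 replicate 2, and the second was 251 without h4 replicate 1, 258 without h2 replicate 2, 312 without h2 replicate 1 and 346 without h4 replicate 3. Most of the 112 genes called against WT were called against neither of the other mutants. Of the 56 higher in h2 than WT, 52 also pointed up from WT in both h1 and h4. Of these 56, 46 were called against neither h1 nor h4. Of the 56 lower in h2, 43 also pointed down from WT in both, and 33 were called against neither. The genes were taken for a difference from the same WT libraries that h1 and h4 are set against. A shared direction therefore follows in part from that choice, and its share over all genes tested was not counted. By the naming rule, 7 genes had the same call against WT, h1 and h4. Prr5, Pdia4, Sgms1, Slc38a2 and Zhx3, a homeobox zinc finger repressor, fell, and Serpinb1a and Fbxo32, a subunit of an SCF ubiquitin ligase, rose. Sgms1 averaged 34.8 ± 0.78 CPM in h2, 45.5 ± 1.06 in WT, 47.1 ± 0.825 in h1 and 46.0 ± 3.35 in h4 (SD, n = 3 each), with a log2 difference of -0.44 against h1 (SE 0.054, edgeR adjusted p = 0.000132) and of -0.39 against h4 (SE 0.055, edgeR adjusted p = 0.000106). Fbxo32 averaged 36.4 ± 2.17 CPM in h2, 28.4 ± 1.255 in WT, 27.7 ± 1.85 in h1 and 29.5 ± 3.17 in h4 (SD, n = 3 each), higher by 0.38 against h1 (edgeR adjusted p = 0.00537) and 0.31 against h4 (edgeR adjusted p = 0.0125). For Sgms1 and Fbxo32 the 3 other genotypes lay near one another. That h2 lay apart from them follows from the rule that took these genes.

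Hspa5 averaged 363 ± 35.7 CPM in WT, 335 ± 17.9 in h1, 315 ± 30.1 in h4 and 256 ± 8.94 in h2 (SD, n = 3 each), and the differences of h2 were -0.40 against h1 (SE 0.085, edgeR adjusted p = 0.0775) and -0.29 against h4 (SE 0.085, edgeR adjusted p = 0.11), which did not pass. All 10 called ER genes pointed down in h2 against h1 and against h4. They were taken for low levels in the same 3 h2 libraries, so this direction follows in part from that choice. Of the 10 genes, 2 passed against h1, Pdia4 (-0.38, edgeR adjusted p = 0.0218) and Herpud1 (-0.33, edgeR adjusted p = 0.00188), and 1 against h4, Pdia4 (-0.30, edgeR adjusted p = 0.0428). Over the 18 genes of the coverings the median was 0.12 for h2 minus h1 and -0.03 for h2 minus h4, beside 0.10 for h2 minus WT. Slc22a2 averaged 0.704 ± 0.0762 CPM in h2, 0.845 ± 0.184 in h1 and 0.772 ± 0.285 in h4, against 2.10 ± 0.422 in WT (SD, n = 3 each), and h2 differed from h1 by -0.24 (SE 0.31, edgeR adjusted p = 0.905). Slc6a20a averaged 33.6 ± 0.428 CPM in h2, 30.7 ± 2.35 in h1 and 33.4 ± 2.05 in h4, against 22.9 ± 1 in WT (SD, n = 3 each), and h2 differed from h4 by 0.02 (SE 0.062, edgeR adjusted p = 0.931). All 3 mutants are set against the same 3 WT libraries. A p that misses the threshold does not show that h2 and another mutant are alike.

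**Figure D5:**
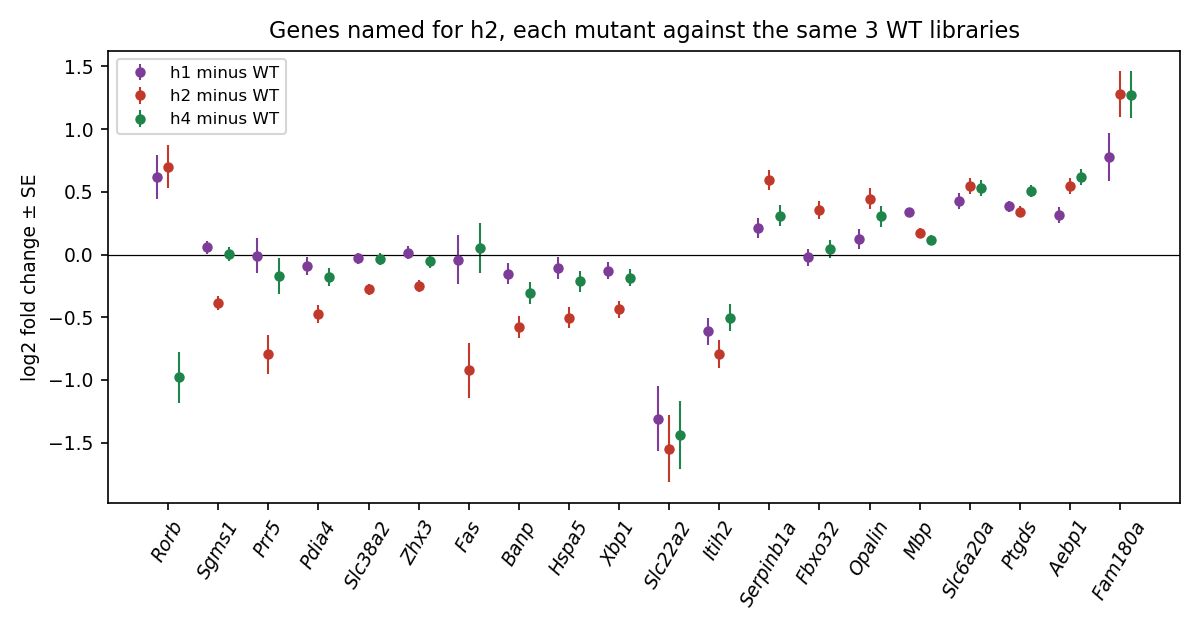
Log2 fold change against WT with its SE (vertical) for 20 genes (horizontal) in h1 (purple), h2 (red) and h4 (green), all against the same 3 WT libraries. Sgms1 and Prr5, which had the same call against WT, h1 and h4, lie apart in h2. Slc22a2, Itih2, Slc6a20a and Ptgds lie on the same side of 0 in all 3 mutants.

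Of the 44 gene lists, 25 held no called gene. The 15 glucocorticoid responsive genes tested had a median of -0.385, with Fkbp5, a co-chaperone of the receptor, at 35.6, 45.4 and 28.7 CPM in WT and 24.5, 25.6 and 24.5 CPM in h2. These did not overlap, but WT replicate 2 was high and the difference of -0.56 did not pass (edgeR adjusted p = 0.481). Of 21 clock genes and ROR or REV-ERB receptors, 17 pointed down, where 51.3% of all genes tested pointed up, with a median of -0.065. Per2, a repressor of the clock, was at 35.6, 36.6 and 30.4 CPM in WT and 18.8, 23.7 and 23.3 CPM in h2 (-0.63, edgeR adjusted p = 0.144), without overlap. Of 12 monoamine and cholinergic genes, 10 pointed down, with a median of -0.27, among them Slc6a4, the serotonin transporter (-0.56, edgeR adjusted p = 0.418).

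Marker lists of the cortical layers, hippocampus, striatum, thalamus and cerebellum had no called gene. In the upper layer list, whose median was -0.01, Cux2 was at -0.02 on the log2 scale. Astrocyte and microglia lists had no called gene either, with medians of 0.04 and 0.00. The presynaptic gene Rims4 and the kainate receptor gene Grik3 were single falls in lists of 20 and 21 genes (-0.21 and -0.23, edgeR adjusted p = 0.0195 and 0.028), and both lost their calls with Xist as a covariate (edgeR adjusted p = 0.122 and 0.137). All 13 mitochondrially encoded genes pointed up, where 51.3% of all genes tested did, with a median of 0.08 and 0 calls. Markers of blood summed to 258, 298 and 576 CPM in WT and 394, 190 and 251 CPM in h2, so WT replicate 3 was the highest, and their part in the results was not tested.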

How the data were processed

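Polyadenylated RNA of whole brains was read as 100 bp paired ends, per the labels' protocols, with a TruSeq RNA v2 kit, which does not mark strand, so a gene and an antisense or overlapping partner cannot be told apart. The submitters' processing notes name RSEM 1.2.12 and Bowtie2 2.2.0. Which genome build and annotation were used is not given in the sources here. The authors deposited expected counts, in which RSEM divides a read that fits several genes among them. The authors' TPM values are scaled to length and to each library's total, and were only averaged here. Gene identifiers were matched to GENCODE M21, 37607 of 38924.

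Expected counts were rounded and tested with edgeR 4.0.16 in R 4.3.3 (quasi-likelihood, robust), over all 12 libraries with 1 mean per genotype, after its low-count filter had left 16493 genes, with TMM scaling and Benjamini-Hochberg adjustment over all genes tested. A called gene has an adjusted p under 0.05. Log2 fold changes are from this model unless an alternative is named. The edgeR script was tested on simulated data. Libraries of 1 genotype differed by more than sampling noise (chi-square per degree of freedom 2.51 to 4.2 in WT and h2), and the common biological coefficient of variation was 0.0531. Rorb and Tyr had a 2-sided exact permutation test as well. The alternatives were DESeq2 1.42.0, other scaling and filters, fewer libraries and Xist as a covariate.

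The comparison and the 44 gene lists (732 genes, 700 tested) were chosen with earlier results of these data known. The naming rule took Rorb, Tyr, the 12 largest rises and falls among called genes of at least 1 CPM, the 10 most abundant called genes, called members of each list, members of lists with fewer than 2 calls by abundance, and genes with the same call against WT, h1 and h4. Pseudogenes, Gm and Rik models and genes with no symbol were counted only. Some genes that the rule took are not printed, and further uncalled genes were chosen after their values were seen. The series labels share replicate numbers between h1 and h2 alone, and whether those numbers pair mice could not be decided.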

Additional observations from a re-analysis of the deposited data

How the results depend on the processing

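In h2 against WT, 112 genes were called, 56 higher and 56 lower. With no low-count filter there were 288 (125 higher, 163 lower), with Xist as a covariate 70 (29 lower), and over the high-Xist libraries alone 39 (22 higher, 17 lower). Leaving out 1 library gave 18 to 348 calls, 10 to 122 higher and 8 to 226 lower, with the extremes at WT replicates 1 and 3. Other scaling, a stricter filter, DESeq2 and the 6 libraries alone stayed within 1.5 times of 112, but the genes were not all the same. Of the 112, 110 kept their call with other scaling, 105 with the stricter filter, 96 with DESeq2 and 75 with the 6 libraries alone. Against h1, 119 genes were called, 290 with no filter, 23 over the high-Xist libraries and 44 to 160 with 1 library left out. Against h4, 531 were called, 844 with no filter, 127 over the high-Xist libraries and 251 to 619 with 1 library left out. Rorb passed with DESeq2 (0.703), and without h1 replicate 2 or h2 replicate 3, and with 1 library left out its log2 fold change ran from 0.612 to 0.849. Over the high-Xist libraries the log2 fold change of Rorb was 0.846. Tyr passed in no alternative. The high-Xist fit leaves 1 h2 library, which is assumed to vary like the others. The cause of these shifts was not tested.

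Titles number the mice alike in h1 and h2 only, so no replicate block could be used for h2 against WT. With the replicate block, over the h1 and h2 libraries alone, 204 genes were called in h2 against h1, and 193 over those libraries with no block. Deviations of same-numbered libraries correlated at -0.147, -0.112 and 0.028, and those of differently numbered libraries at -0.165 to 0.247. With 3 libraries per genotype these values cannot decide whether the numbers pair the mice. Depth limits genes near 1 CPM, which is about 14.5 reads in the shallowest h2 library, and 5 called genes averaged under 1 CPM.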

Other observations

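Some called genes of h2 against WT belong to no gene list, 74 of the 112. Among them, chosen after their values were seen, Qdpr, which recycles tetrahydrobiopterin, rose by 0.22 on the log2 scale, from 186.5, 191 and 203 CPM in WT to 236.5, 220 and 219 CPM in h2 (edgeR adjusted p = 0.00642). Sfpq, a splicing factor of nuclear paraspeckles, fell from 191, 183 and 184.5 CPM to 154, 159 and 169 CPM (-0.21, edgeR adjusted p = 0.00413) with the called Gm12940 starting 12.4 kb away, and where such neighbours overlap their reads cannot be told apart. Il33, an alarmin kept in nuclei of oligodendrocytes and astrocytes, rose from 44.9, 46.9 and 47.8 CPM to 55.1, 57.6 and 57.5 CPM (0.29, edgeR adjusted p = 0.0107). Meg3, an imprinted long noncoding RNA, fell from 3972, 4105 and 4040 CPM to 3752, 3708 and 3838 CPM (-0.10, edgeR adjusted p = 0.0432). None of these 4 genes overlapped between the groups. Without WT replicate 1 each of the 4 lost its call. With Xist as a covariate Il33 (edgeR adjusted p = 0.0704) and Meg3 (edgeR adjusted p = 0.135) lost theirs.

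Where 0.679% of all genes tested were called, chromosome 10 held 0 called of 774 genes tested and chromosome 16 held 8 of 494 (1.62%). Both were chosen as extremes after the values of all chromosomes were seen, and the difference was not tested. Sdf2l1, which fell, and Serpind1, which rose, start 201.2 kb apart on chromosome 16.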
